A study of Mus musculus with 2 samples.

Results

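Chemokine ligands are small secreted proteins that draw leukocytes along a concentration gradient by way of receptors on the leukocyte surface. They are named after the spacing of their first cysteines (CC, CXC, CX3C, and XC), and most of their genes sit in tandem clusters. In adipose tissue, stromal cells, macrophages, and endothelial cells are known sources. Neutrophil ligands bind CXCR2, interferon-driven ligands such as Cxcl9 and Cxcl10 bind CXCR3 on T and NK cells, and homeostatic ligands such as Cxcl12 position progenitors and leukocytes at rest.

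The ligands were taken as all rows whose symbol begins with Ccl, Cxcl, Cx3cl, or Xcl followed by a number and at most 1 letter, which gave 36 of the 24091 genes. Of these 36 ligands, 22 reached an FPKM of 1 in either library, as did 11253 genes overall. FPKM is the number of fragments on a gene, scaled to its length in kb and to the depth of the library, so levels can be compared between genes. Wherever a pair of values is given, the sham-irradiated library comes first. The 22 ligands were sorted by their known role into 3 interferon-driven, 4 neutrophil, 3 homeostatic, 8 monocyte and macrophage, and 2 membrane-anchored ligands, with 2 further ligands of CCR3 and CCR4. The lowest ligands that were kept were Ccl25, with an FPKM of 1.12 and 1.18, and Cxcl9, with 1.16 and 0.759. The highest that were left out were Ccl17, with 0.893 and 0.95, and Ccl20, with 0.647 and 0.443.

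The data comprised 2 polyadenylated RNA libraries of C57BL/6 mice, 1 from sham-irradiated and 1 from pelvically irradiated animals (7.5 Gy, 5 days), and the titles of both samples also name PBS. Gonadal fat was taken 2 months after radiation, and the cells that floated after collagenase digestion were cultured for 3 days. Neither the ages nor the number of mice per library is stated, and 7.5 Gy may be the daily or the total dose. As each condition has a single library, nothing below has a replicate check or a test, and each value describes these libraries.

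The depth, recovered from the values, was 30600000 fragments without and 35000000 with irradiation. The material is labelled as primary adipocytes, but 8 of 10 adipocyte markers stayed below an FPKM of 1 in each library, Adipoq among them at 0.133 and 0.232. The 2 kept were Fabp4, at 96.9 in both libraries, and Pnpla2, at 5.11 and 5.76. The adipocyte markers summed to 105 and 106, most of it Fabp4. Fibroblast markers (10 of 10 kept) summed to an FPKM of 4465 and 3567, most of it the collagens Col1a1, Col1a2, and Col3a1. Macrophage markers (12 of 12 kept) summed to 621 and 662, most of it Lyz2, at 443 and 410. Endothelial markers summed to 44.6 and 48.6, and mesothelial markers to 34.5 and 49.5. Neutrophil markers summed to 5.23 and 4.40, dendritic cell markers to 3.28 in both, and lymphocyte markers to 2.15 and 1.09. Of the neutrophil markers, Retnlg (1.74 and 2.26) and S100a8 (2.10 and 1.47) were kept, and Ly6g, a defining one, had 0 fragments in both. The counting intervals of the fragment ratio (log2, irradiated over sham-irradiated) included 0 for Retnlg, S100a8, and Csf3r. Those of Mpo (40 and 16 fragments), Elane (6 and 0), and S100a9 (5 and 0), all under an FPKM of 1, lay below 0. The 8 mesothelial markers had a median difference (irradiated minus sham-irradiated) of 1.255 on the log2(FPKM + 0.1) scale, from -0.13 for Wt1, at an FPKM of 20.4 and 18.7, to 2.18 for Msln, at 0.520 and 2.71. The counting interval of the fragment ratio lay above 0 on the log2 scale for 7 of them and below 0 for 1. Endothelial markers had 4 of 8 intervals above 0 and 0 below. The part of either cell type in the ligand values was not tested. In bulk libraries of this kind, a different share of a cell type and a different amount of RNA per cell cannot be told apart.

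Promoter sequences are shown for 5 ligands, because the Cxcl10 and Cxcl9 genes are neighbours whose levels differed in opposite directions, Cxcl1 and Cxcl2 are neutrophil ligands that were both lower after irradiation, and Cxcl12 was the homeostatic ligand with the largest difference. Each run gives the 250 bases before the start site in RefSeq (GRCm38.p6), read 5′ to 3′ on the gene's strand. Capitals mark matches on either strand to the core of the interferon-stimulated response element (ISRE, GAAANNGAAA), the gamma-activated site (GAS, TTCNNNGAA), or the NF-kB consensus. The windows are chr5:92348890-92349139 (minus strand) for Cxcl10, chr5:92328080-92328329 (minus strand) for Cxcl9, chr5:90890995-90891244 (plus strand) for Cxcl1, chr5:90903649-90903898 (plus strand) for Cxcl2, and chr6:117168285-117168534 (plus strand) for Cxcl12.
Cxcl10: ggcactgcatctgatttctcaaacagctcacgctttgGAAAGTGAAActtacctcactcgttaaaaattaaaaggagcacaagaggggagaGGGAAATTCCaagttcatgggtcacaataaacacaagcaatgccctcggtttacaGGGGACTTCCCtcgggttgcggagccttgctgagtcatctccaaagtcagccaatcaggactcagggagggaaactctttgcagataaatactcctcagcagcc
Cxcl9: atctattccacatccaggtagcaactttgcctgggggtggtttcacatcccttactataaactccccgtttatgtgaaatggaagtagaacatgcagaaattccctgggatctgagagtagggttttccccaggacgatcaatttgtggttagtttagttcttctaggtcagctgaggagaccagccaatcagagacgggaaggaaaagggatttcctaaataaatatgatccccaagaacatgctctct
Cxcl1: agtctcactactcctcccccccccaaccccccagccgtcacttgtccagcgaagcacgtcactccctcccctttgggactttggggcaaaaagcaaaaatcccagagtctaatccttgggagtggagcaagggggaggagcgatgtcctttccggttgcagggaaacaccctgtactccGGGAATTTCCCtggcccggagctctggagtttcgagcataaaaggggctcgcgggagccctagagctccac
Cxcl2: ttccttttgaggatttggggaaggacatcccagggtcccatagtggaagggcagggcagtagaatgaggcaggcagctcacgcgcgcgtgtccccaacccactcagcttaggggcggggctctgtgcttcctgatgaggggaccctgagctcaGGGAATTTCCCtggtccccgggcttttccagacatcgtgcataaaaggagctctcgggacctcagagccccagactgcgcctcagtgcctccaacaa
Cxcl12: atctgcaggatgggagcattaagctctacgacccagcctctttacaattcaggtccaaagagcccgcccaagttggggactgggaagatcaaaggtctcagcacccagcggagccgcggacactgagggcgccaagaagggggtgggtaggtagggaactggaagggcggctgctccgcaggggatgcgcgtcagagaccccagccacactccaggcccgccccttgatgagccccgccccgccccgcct

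In the Cxcl10 promoter, the ISRE core lay 213 to 204 bases before the start, and NF-kB matches began 159, 104, and 103 bases before it, the last 2 overlapping each other. The Cxcl1 and Cxcl2 promoters each held 1 stretch that matched the NF-kB consensus on both strands, beginning 71 and 97 bases before the start, respectively. The Cxcl9 and Cxcl12 windows held no match to any of the 3 patterns. Over the full window from 250 bases before to 50 after the start, 15 of the 22 ligands could be matched to a RefSeq promoter. Ccl2, Ccl4, Ccl5, Ccl7, Ccl11, Cxcl5, and Cxcl16 could not. The ISRE core was present in 2 of these 15 (Cxcl10 and Cxcl14) and in 3.44% of all 32851 promoters. The NF-kB consensus was present in 5 (Ccl9, Cxcl1, Cxcl2, Cxcl3, and Cxcl10) and in 8.46% of all promoters, and the GAS in 1 (Cxcl14) and in 8.30%. Over the 11172 promoters of kept genes, the shares were 3.08% for the ISRE core, 10.5% for the NF-kB consensus, and 6.70% for the GAS. A match is a run of letters and not evidence of binding.

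The neutrophil ligands were lower in the irradiated library without exception among the 4 kept. Cxcl5 was the most abundant ligand of all, at an FPKM of 1884 without and 1287 with irradiation, ranks 4 and 9 among all genes. Its difference on the log2(FPKM + 0.1) scale, irradiated minus sham-irradiated, was -0.55, with a 95% counting interval of the fragment ratio from -0.56 to -0.54. This interval, and those below, cover counting error only, because PCR copies are not independent molecules and neither mice nor cultures were replicated.

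Cxcl1, a principal neutrophil attractant released by stressed stroma, had an FPKM of 383 and 292, a difference of -0.39 (interval -0.43 to -0.35). Cxcl3 had 52.6 and 41.8, a difference of -0.33 (interval -0.43 to -0.23). Cxcl2, which myeloid cells make readily, was the lowest of the kept members, with 5.33 and 3.38 and a difference of -0.64 (interval -0.91 to -0.40). Although the 4 ligands differed widely in level, their differences lay between -0.64 and -0.33, with a median of -0.47. The median over all 11253 genes kept was 0.02.

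Cxcl15, the lung-type ligand of the class, had no fragments in either library, which allows an FPKM of up to 0.0463 and 0.0404 (3 fragments). Of 50-base windows of the annotated Cxcl2 transcripts, 5.84% were shared with Cxcl3, so some fragments of this pair could have been counted for either gene. None of the Cxcl1 windows was shared with another gene. Cxcr2 and Cxcr1, the receptors of these ligands on neutrophils, had 0 fragments in both libraries.

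**Figure D1:**
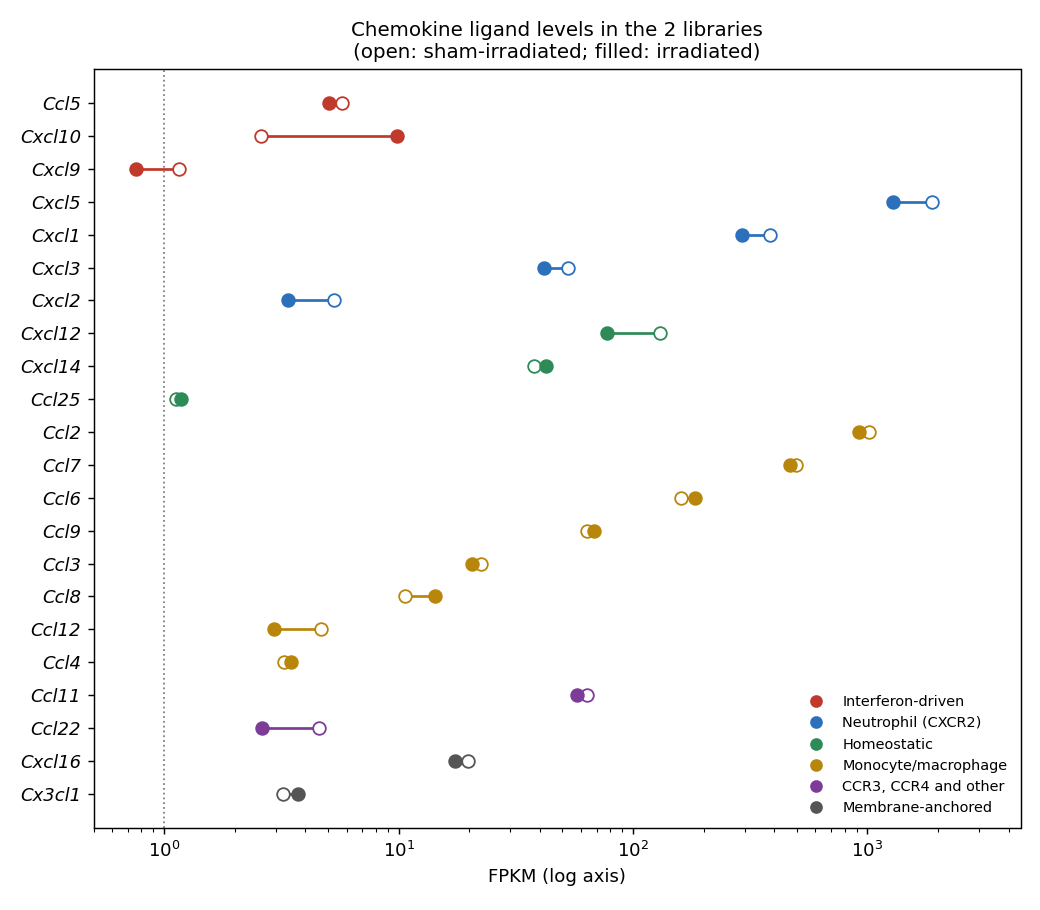
FPKM of the 22 kept ligands on a log axis, with an open circle for the sham-irradiated library, a filled circle for the irradiated library, colours for the classes, and a dotted line at an FPKM of 1. All 4 neutrophil ligands have the filled circle to the left of the open one, whereas among the interferon-driven ligands Cxcl10 moves from 2.59 to 9.89 and Cxcl9 and Ccl5 are lower.

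The interferon-driven ligands did not share a direction. Cxcl10, which interferons and NF-kB induce in many cell types, went from an FPKM of 2.59 to 9.89 with irradiation, on 120 and 524 fragments. It was 3.81-fold higher after irradiation, with a difference of 1.89 and a counting interval from 1.64 to 2.23. Cxcl10 was the 1 ligand of 22 that differed by 1 or more, up or down, as 1.16% of the 11253 genes did.

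Cxcl9, a ligand of the same receptor that is induced chiefly by interferon gamma, was lower, with an FPKM of 1.16 and 0.759 on 103 and 77 fragments. It was the only kept ligand to pass the filter through the sham-irradiated library alone, which favours a lower value. Its difference was -0.55 (interval -1.06 to -0.17). The FPKM of Cxcl10 was therefore 2.24 times that of Cxcl9 without and 13.03 times with irradiation. Cxcl11, the third CXCR3 ligand, had 0 and 1 fragments, and no difference was detectable at this depth. C57BL/6 mice are known to carry a frameshift in Cxcl11, and the transcript is measured here, not the protein.

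Ccl5, a T cell and monocyte attractant that both interferon regulatory factors and NF-kB induce, had an FPKM of 5.72 and 5.03, and its interval, from -0.61 to 0.25, included 0. The median of the 3 kept ligands was -0.18, whereas the summed FPKM of the class was 9.47 and 15.7, a log2 ratio of 0.73 in the opposite direction, because the sum is carried by Cxcl10. Without Cxcl10, the median was -0.365. Cxcr3, their receptor gene, was near the floor, with 13 and 9 fragments.

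**Figure D2:**
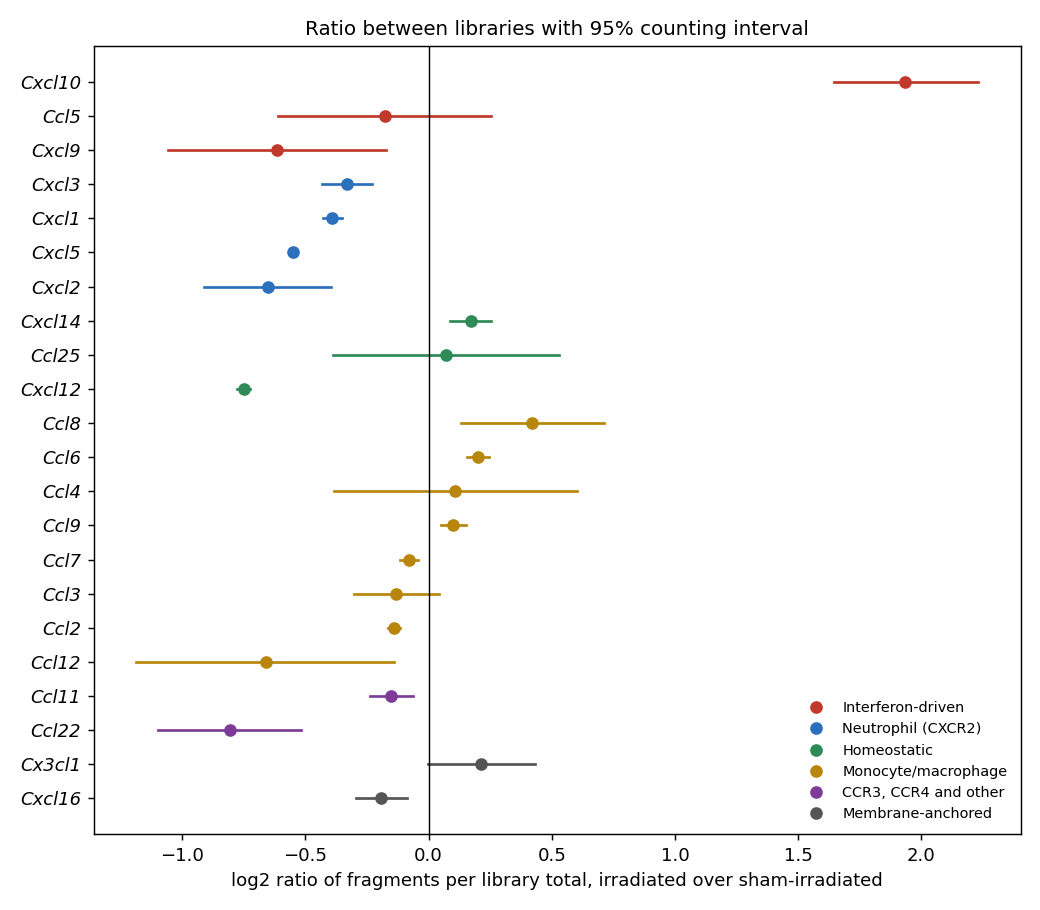
The log2 ratio of fragments per library total (irradiated over sham-irradiated) for each kept ligand, as a point with its 95% Clopper-Pearson counting interval. Cxcl10 lies farthest to the right with an interval from 1.64 to 2.23, and the intervals of Ccl6, Ccl8, Ccl9, and Cxcl14 also lie above 0. Those of all 4 neutrophil ligands and of Cxcl12, among others, lie below 0.

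The homeostatic ligands were also mixed. Cxcl12, which retains hematopoietic progenitors and guides CXCR4-bearing cells, had an FPKM of 131 and 77.6 on 28554 and 19413 fragments. It was 1.68-fold lower in the irradiated library, with a difference of -0.75 (interval -0.78 to -0.72). Cxcl14, a ligand of epithelium and fat stroma, had 37.7 and 42.4 and was slightly higher, by 0.17 (interval 0.09 to 0.25). The ratio of Cxcl12 to Cxcl14 in FPKM thus went from 3.46 to 1.83.

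Ccl25, the thymus and gut ligand of CCR9, stood at 1.12 and 1.18, with an interval from -0.39 to 0.53 that included 0. The remaining 5 homeostatic ligands (Ccl19, Ccl27a, Ccl27b, Ccl28, and Cxcl13), known chiefly from lymphoid organs, skin, and mucosa, stayed below an FPKM of 1 in each library. Fibroblast markers were lower in sum in the irradiated library, as given above, with 6 of 10 counting intervals below 0 and 2 above. Differences ran from -0.55 for Pi16 to 0.40 for Thy1. Most of the lower sum came from the collagens Col1a1 (-0.44), Col1a2 (-0.43), and Col3a1 (-0.33). Pdgfra (-0.37) and, slightly, Pdgfrb (-0.07) were also lower, whereas Dcn and Lum were level at 0.01 and Ly6a was higher by 0.13. The part of fibroblast RNA in the lower Cxcl12 and Cxcl5 was not tested.

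The monocyte and macrophage ligands differed little at high levels, and the lower ones went both ways. Ccl2, the main ligand of CCR2, had an FPKM of 1017 and 923, ranks 14 and 17 among all genes, a difference of -0.14 (interval -0.17 to -0.11). Ccl7, a second CCR2 ligand, had 494 and 468, a difference of -0.08 (interval -0.12 to -0.04). The ratio of Ccl2 to Ccl7 in FPKM was 2.06 and 1.97.

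Ccl6 and Ccl9, rodent CCR1 ligands made by myeloid cells, were slightly higher. Ccl6 had an FPKM of 160 and 183, a difference of 0.20 (interval 0.16 to 0.25), and Ccl9 had 63.9 and 68.5, a difference of 0.10 (interval 0.05 to 0.15). Ccl8 had 10.7 and 14.3, a difference of 0.42 (interval 0.13 to 0.71), the second highest among the 22 ligands. Ccl12, a further CCR2 ligand of mice, was lower, with 4.66 and 2.95 and a difference of -0.64 (interval -1.19 to -0.14), but on only 76 and 55 fragments.

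Ccl3 and Ccl4, inflammatory ligands known from activated macrophages, stood at an FPKM of 22.5 and 20.6 and of 3.24 and 3.48. Both of their intervals included 0. The median difference of the 8 ligands was 0.01, with 3 intervals above 0 and 3 below. Macrophage markers had 8 of 12 intervals above 0 and 1 below, with differences from -0.11 for Lyz2 to 0.80 for C1qa and C1qc, and the part of macrophage RNA in these ligands was not tested.

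Of the remaining ligands, Ccl11 (eotaxin, a CCR3 ligand that attracts eosinophils) had an FPKM of 63.9 and 57.6, a difference of -0.15 (interval -0.24 to -0.06). Ccl22, a CCR4 ligand of dendritic cells and macrophages, had 4.56 and 2.61, and its difference of -0.78 (interval -1.10 to -0.52) was the lowest of the 22. Cxcl16, which is membrane-anchored and binds CXCR6, had 19.9 and 17.4, a difference of -0.19 (interval -0.29 to -0.09). Cx3cl1, the membrane-anchored ligand of CX3CR1, had 3.22 and 3.74 and an interval that reached just below 0 (-0.003 to 0.43).

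The 14 ligands under an FPKM of 1 in both libraries gave no detectable difference. Ccl1, Ccl26, Cxcl15, and Cxcl17 had no fragments in either library, and Ccl27b and Cxcl11 had 0 and 1. Ccl27b has near-identical copies, so its count is uncertain. The other 8, Ccl17, Ccl19, Ccl20, Ccl24, Ccl27a, Ccl28, Cxcl13, and Xcl1, had between 2 and 28 fragments in each library, and all 8 counting intervals included 0.

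Taking the 22 kept ligands as a whole, 14 were lower and 8 higher in the irradiated library, with a median difference of -0.145. Of all 11253 genes, 44.0% were lower and 53.5% higher. A counting interval wholly below 0 by more than the rounding of the deposited values was found for 12 of the 22 ligands and for 15.9% of all genes, and one wholly above 0 for 5 ligands and for 22.2% of all genes. These shares depend on depth, because an abundant gene has a narrow interval.

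By size alone, 6 of the 22 ligands were lower by at least 0.5 (Ccl12, Ccl22, Cxcl12, Cxcl2, Cxcl5, and Cxcl9), against 1.44% of all genes. Of these, Cxcl9 passed the filter only through the sham-irradiated library. Cxcl10 was the 1 ligand higher by at least 0.5, against 4.31% of all genes. Among the 525 genes that reached an FPKM of 100 in either library, 8 were lower by at least 0.5, and Cxcl5 and Cxcl12 were among these 8. The other 4 ligands at that level, Ccl2, Ccl6, Ccl7, and Cxcl1, differed by less than 0.5.

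**Figure D3:**
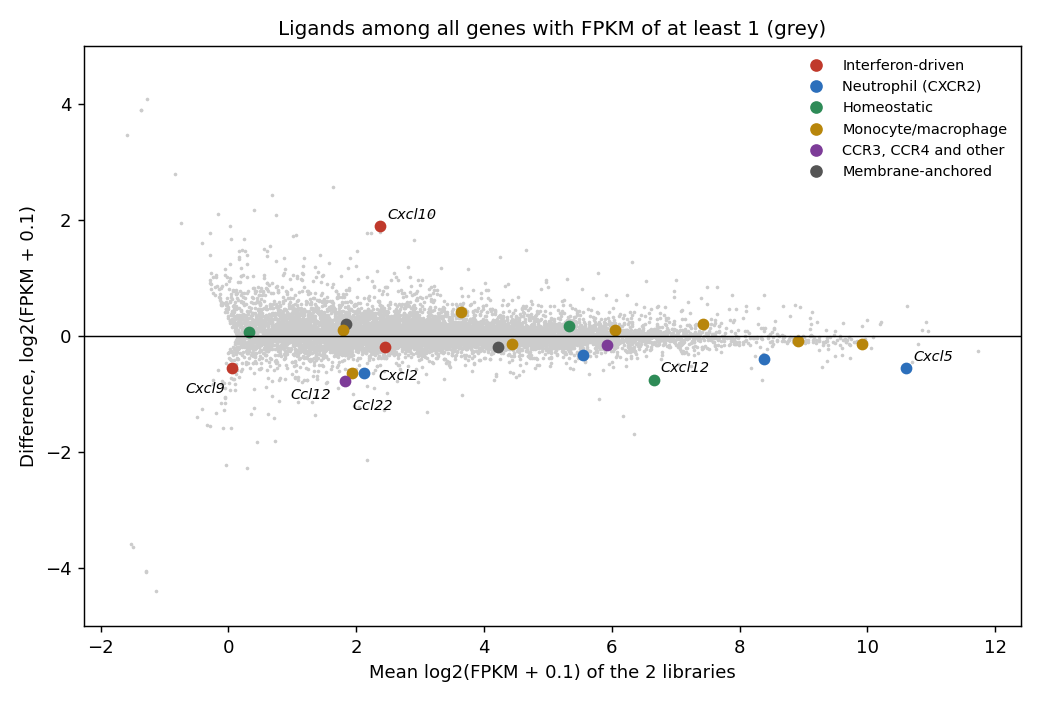
Difference between libraries (irradiated minus sham-irradiated) against the mean level, both on the log2(FPKM + 0.1) scale, for the 11253 genes that reached an FPKM of 1 in either library (grey) and the 22 ligands (coloured by class). Cxcl10 stands above 0 at 1.89, and Cxcl12 and Cxcl5 lie below 0 at levels where the grey points are narrow.

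The summed FPKM of the 36 ligands was 4374 without and 3529 with irradiation, or 1.43% and 1.15% of the FPKM of all genes. Cxcl5 alone made up 70.7% of the reduction of 845. Neutrophil ligands held 53.2% of the ligand sum without and 46.0% with irradiation, and monocyte and macrophage ligands held 40.6% and 47.7%. Homeostatic ligands held 3.89% and 3.45%. Despite the higher Cxcl10, interferon-driven ligands held only 0.216% and 0.445%.

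**Figure D4:**
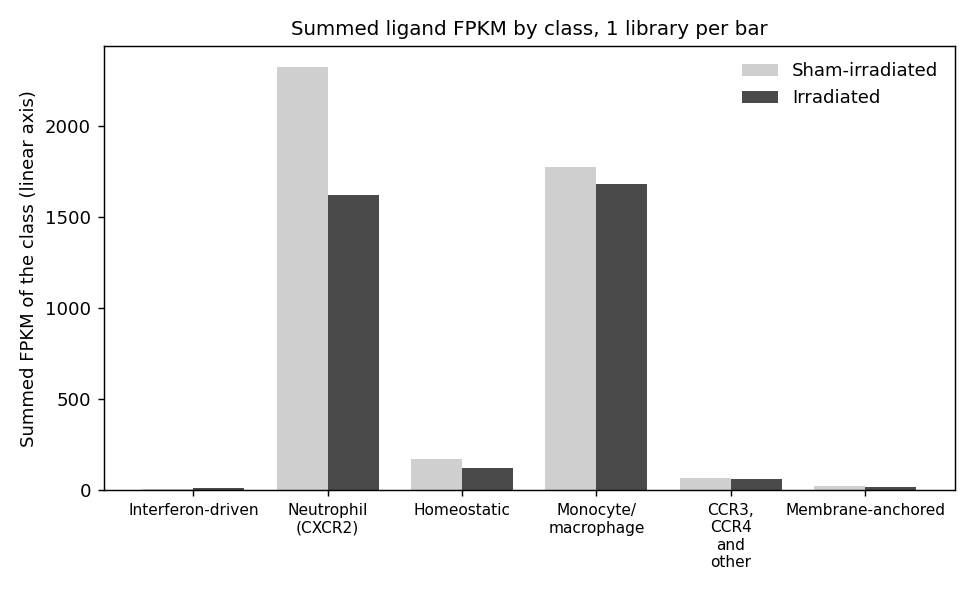
Summed FPKM of all 36 listed ligands by class on a linear axis from 0 (Cxcl17, with no fragments, is not drawn), with 1 bar per library and therefore no error bars. The neutrophil class goes from 2325 to 1624 and the monocyte and macrophage class from 1776 to 1684, so the larger of the 2 differs between the libraries.

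The ligand genes were next read by their position in the genome (mm10, coordinates as deposited). The 5 neutrophil ligands under the naming rule lie within 146.6 kb on chromosome 5 from 90759298 to 90905938, and the 4 with an FPKM of at least 1 (Cxcl5, Cxcl3, Cxcl1, and Cxcl2) were all lower. The CXCR3 ligands lie within 42.0 kb on the same chromosome from 92321331 to 92363296, where Cxcl9 and Cxcl10 are 18.6 kb apart and differed by 2.44 in their log2 differences.

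A run of 6 CC ligands lies within 144.2 kb on chromosome 11 from 82035577 to 82179812. Within it, Ccl2, Ccl7, and Ccl11 were lower by 0.15 or less, and the neighbours Ccl12 and Ccl8, 11.8 kb apart, differed in opposite directions, with -0.64 and 0.42. A second run of 5 on chromosome 11, from 83525779 to 83664683, held Ccl5, Ccl9, Ccl6, Ccl3, and Ccl4, whose differences stayed between -0.18 and 0.20. On chromosome 8, Ccl22 and Cx3cl1 are 20.8 kb apart and stood at -0.78 and 0.21.

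**Figure D5:**
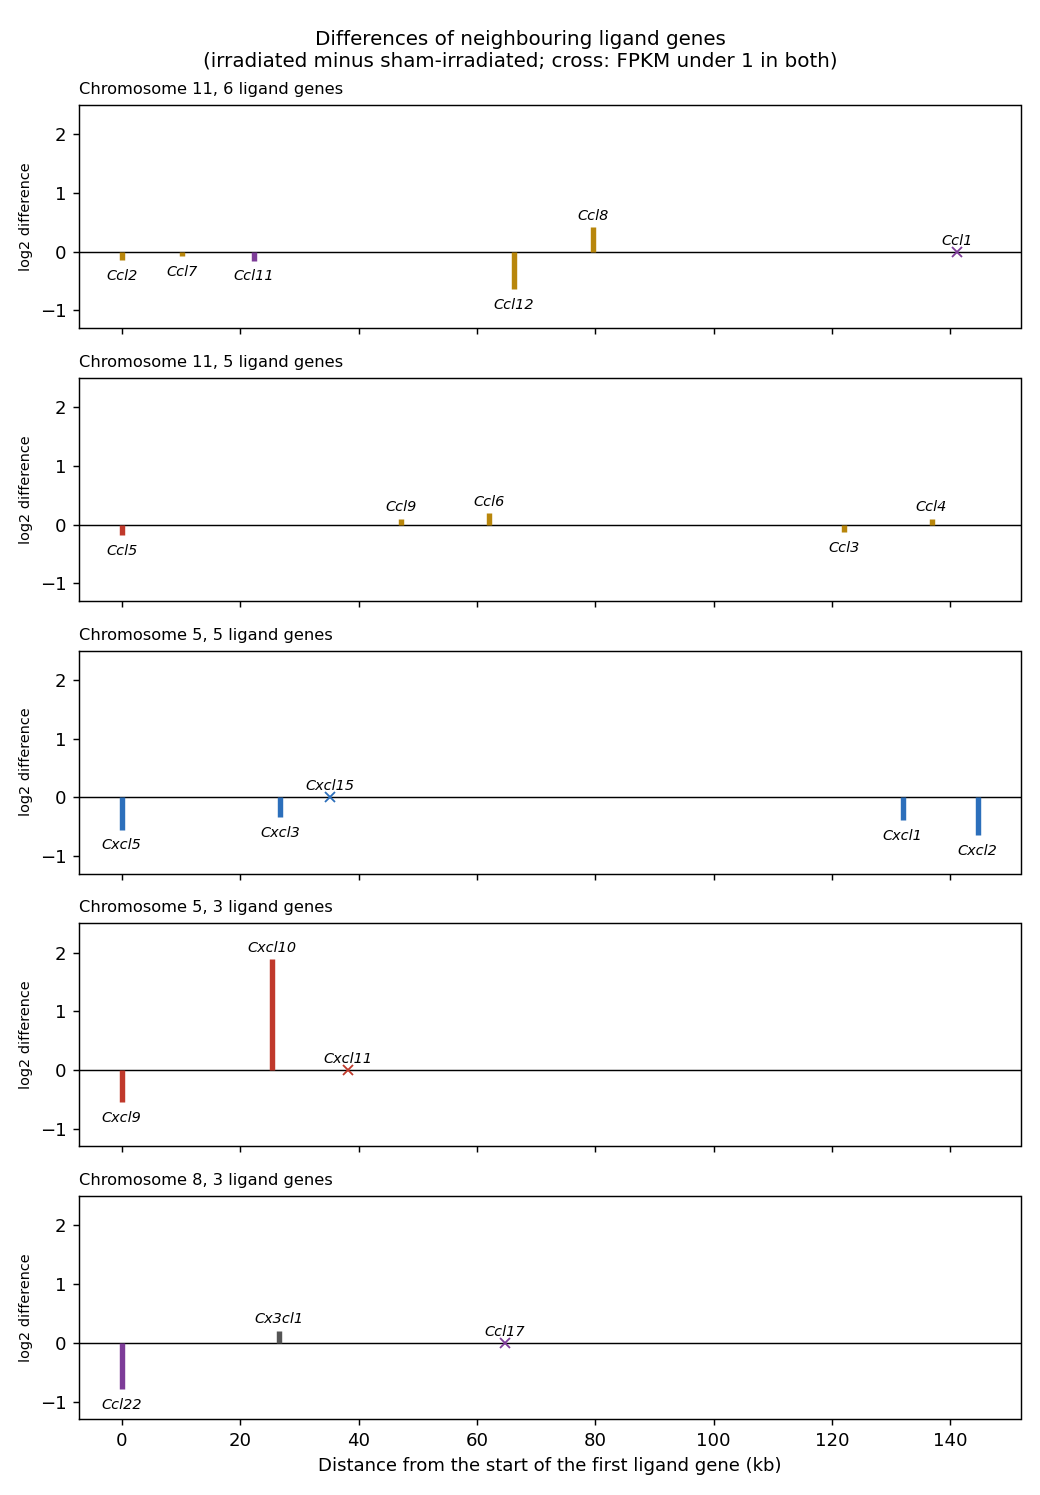
Difference of each ligand (irradiated minus sham-irradiated, log2(FPKM + 0.1) scale) against its distance in kb from the first ligand gene of its run, for runs with at least 2 kept ligands, where a cross marks a gene under an FPKM of 1 in both libraries. The neutrophil run on chromosome 5 has bars on 1 side of 0 only, between -0.64 and -0.33, whereas Cxcl9 and Cxcl10 have bars on opposite sides.

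Of the 17 signalling chemokine receptors summarised, 5 reached an FPKM of 1 in either library, with a median difference of -0.34, 2 intervals above 0, and 2 below. The receptors with an interval below 0, Ccr2 and Cxcr6, passed this filter only through the sham-irradiated library. The median and the counts therefore lean towards lower values. Ccr2, the receptor of Ccl2, Ccl7, and Ccl12 on monocytes, was lower, with an FPKM of 1.38 and 0.516 on 184 and 79 fragments, a difference of -1.27 (interval -1.81 to -1.03). Cxcr6, the receptor of Cxcl16 on T cells, was also lower, with 1.93 and 0.759 on 113 and 51 fragments, a difference of -1.24 (interval -1.85 to -0.85). All 9 lymphocyte markers stayed below an FPKM of 1 in each library, and their sum was lower in the irradiated library, as given above. The part of lymphocyte RNA in Cxcr6 was not tested.

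The following receptors were named after their values were seen. Ccr1, the receptor of Ccl6, Ccl9, and Ccl3, had an FPKM of 8.59 and 10.8, a difference of 0.32 (interval 0.19 to 0.46). Cxcr4, the signalling receptor of Cxcl12, was higher by 0.44 (4.69 and 6.40, interval 0.22 to 0.68), and Ackr3, its scavenging receptor, by 0.36 (6.82 and 8.78, interval 0.20 to 0.53). Both receptors of Cxcl12 were thus higher in the library in which Cxcl12 itself was lower, a pairing that was not tested. Ccr7, the remaining kept receptor of those summarised above, had an FPKM of 1.48 and 1.15. Its difference was -0.34, and its interval, from -0.82 to 0.09, included 0. Ackr3 was the 1 of 6 atypical receptors that reached an FPKM of 1.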

How the data were processed

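Polyadenylated RNA of 2 libraries (1 sham-irradiated, 1 irradiated) was analysed, with conditions taken from the sample labels. The values deposited by the authors are log2 of FPKM with 0.1 added, given to 2 decimals beside the gene length in kb. The labels describe a stranded library preparation, and the submitters' processing notes name genome build mm10. For the aligner, counting tool, and filters, no name was given in the sources used here.

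FPKM was recovered as 2 to the deposited value minus 0.1. Library totals were those at which values of low genes were whole fragments within 0.12, as held for all 3039 and 2982 such genes, and the fragments per gene followed from them. The recovery was tested on simulated data. Fragments of abundant genes are approximate, because rounding moves a difference by up to 0.01. No sample column other than the 2 libraries' was present. Differences are irradiated minus sham-irradiated on the log2(FPKM + 0.1) scale, which understates changes of low genes. Intervals are exact 95% Clopper-Pearson intervals of the fragment ratio per library total, without the added 0.1.

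With 1 library per condition, no test was made. The ligands, their classes, and the other gene lists were written from general knowledge and chosen with earlier results of these data known. Every ligand that reached an FPKM of 1 in either library is named with its values, as is each listed receptor, enzyme, or regulator with a difference of at least 0.5 among those kept. Alternatives were another pseudocount, other filters, centring, scaling without the 100 most abundant genes, other list definitions, and a threshold of 0.5. Promoters are from RefSeq and transcript windows of 50 bases from GENCODE. Proteins were not analysed here, and 1 listed receptor is not reported here. The software was SciPy 1.17.1, numpy 2.4.6, and pandas 2.3.3 under Python 3.11.15, with figures by matplotlib 3.10.9.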

Additional observations from a re-analysis of the deposited data

How the results depend on the processing

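No paired analysis was possible because only 1 library stood for each condition, and none could be left out. The ratio of recovered fragments without an added constant, and the interferon-driven median without Cxcl10, were chosen after seeing the data. As deposited, 89 of all genes were higher and 42 lower by at least 1. The counts were 29 and 17 with log2(FPKM + 1), 267 and 148 without a filter, 23 and 10 with an FPKM of at least 5, and 485 and 162 at a threshold of 0.5. Of the ligands, 1 was higher by at least 1 under every alternative and 0 were lower, except for 6 at the threshold of 0.5, and 36 were counted without a filter. The interferon-driven median of -0.18 turned to 0.67 for the CXCR3 ligands only, 0.855 with an FPKM of at least 5, 0.73 as the ratio of sums, and 0.03 without a filter, since it depends on how many ligands stand beside Cxcl10. The homeostatic median of 0.07 became -0.483 as the ratio of sums, which Cxcl12 carries, -0.29 with an FPKM of at least 5, and -0.085 without a filter. The neutrophil median of -0.47 was -0.517 as the ratio of sums and -0.39 without a filter. The median of all kept ligands stayed between -0.165 and -0.095. The monocyte and macrophage median of 0.01 lay between -0.0769 and 0.01. With log2(FPKM + 1), Cxcl10 was at 1.60, outside its counting interval, and Cxcl9 was at -0.29. Centring moved Cxcl5 to -0.57. No kept ligand whose interval excluded 0 changed sign. Centring and scaling shifted all genes by -0.02 and -0.016. Depth limits Ccl12, Cxcl9, Ccl5, Ccl4 (65 and 80 fragments), and Ccl25 (75 and 90 fragments), and the ligands below an FPKM of 1.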

Other observations

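Of the enzymes known to cut or shed chemokines, 7 of 8 were kept, with a median difference of 0.01. Mmp9, a gelatinase that cuts several CXC ligands, was lower in the irradiated library, with an FPKM of 62.6 and 39.6 and a difference of -0.66 (interval -0.72 to -0.61). The sheddases of Cx3cl1 and Cxcl16, named after their values were seen, were nearly level, with Adam10 at 51.5 and 50.5 and Adam17 at 25.7 and 23.3. Dpp4, which trims Cxcl10 and Cxcl12 and was also named after its value was seen, had 0.886 and 1.24, a difference of 0.44 (interval 0.21 to 0.77).

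Among 14 factors that drive or curb chemokine transcription, all were kept, and 5 had a counting interval above 0 and 1 below. Irf7, an amplifier of type I interferon responses, had an FPKM of 22.2 and 32.6, a difference of 0.55 (interval 0.45 to 0.65). Stat2, named after its value was seen, had 5.18 and 7.16, a difference of 0.46. The NF-kB subunits Nfkb1, Nfkb2, Rela, and Relb, named likewise, lay between -0.08 and 0.02.

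The platelet chemokines Ppbp and Pf4 fall outside the naming rule although they are CXC ligands, and were named after their values were seen. Ppbp, a CXCR2 ligand whose gene name hides its kinship with Cxcl1 and Cxcl5, had an FPKM of 16.8 and 12.0, a difference of -0.48 (interval -0.66 to -0.30), within the range of the 4 neutrophil ligands. Pf4, which is not a CXCR2 ligand of neutrophils, had 194 and 226, a difference of 0.22 (interval 0.16 to 0.28). Differences between these pairs were not tested, since each condition had 1 library.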
